A study of Rattus norvegicus with 20 samples.

Results

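The genes that mark the main kinds of striatal projection neuron were followed in the nucleus accumbens shell: Drd1, Tac1 and Isl1 for D1 neurons, Drd2 and Gpr6 for D2 neurons, and Drd3, another dopamine receptor of the ventral striatum. They were found by gene symbol among the probe sets that the platform's annotation assigns to 1 gene, which gave 8 probe sets for the 6 genes, out of 31099 probe sets on the array and 14217 genes named in this way. All animals were rats of the alcohol-preferring (P) line, selected over generations for drinking ethanol by choice. The ethanol group (n = 10, animals 1 to 10) had access to 15 and 30% ethanol during adolescence in a binge-like drinking design, and the water group (n = 10, animals 12 to 21) had water. Each animal gave 1 array of total RNA from the accumbens shell, and no other treatment, genotype or age is given for either group. The comparison asks which transcripts differ after adolescent drinking. Values are on the log2 scale, so that a difference of 1 is a doubling.

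Projection neurons make up most of the striatum and release GABA. D1 neurons carry the Drd1 receptor, which raises cAMP when dopamine binds, make substance P from the Tac1 precursor and project mainly along the direct pathway. D2 neurons carry the Drd2 receptor, which lowers cAMP, make enkephalin and project along the indirect pathway, in the accumbens chiefly to the ventral pallidum. In bulk RNA, fewer cells of a type and less of a transcript per cell cannot be told apart.

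None of the 6 genes passed the threshold of the comparison between ethanol and water (limma, Benjamini-Hochberg adjusted p under 0.05), which 20 of 20695 probe sets (0.0966%) passed. The means of Drd1, Tac1, Isl1, Drd2 and Gpr6 lay 0.13 to 0.52 higher in ethanol, but their lowest adjusted p was 0.384. Water animals 17, 19 and 20 had low values of D1 and D2 genes alike, except Isl1 in animal 19. Without them the differences of these genes lay between -0.05 and 0.09. As these animals were known to be low in such genes, leaving them out raises the water means by construction. These smaller differences are therefore only a description. The balance of D1 against D2 genes differed between the groups by 0.015, against a standard deviation (SD) of about 0.14 between animals. With Isl1 left out of the D1 side it differed by 0.108, against an SD of 0.147 in ethanol and 0.198 in water.

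The striatal identity of the tissue was checked on 17 genes that D1 and D2 neurons share. Of the 16 with a probe set, 16 lay above 6.65, the mean level under which a probe set counts as dim and was not tested, and the list mean ranged from 12.23 to 12.91 in ethanol and from 11.57 to 12.91 in water. Animals 17, 19 and 20 had the lowest list means, at 11.89, 12.02 and 11.57. Median correlations of an array with the others lay between 0.988 and 0.997, and were 0.991, 0.994 and 0.988 for these animals. Water animal 12, also at 0.991, lay below animal 19 on this measure. Animals 17, 19 and 20 were known from earlier results to be low in projection neuron genes. A comparison without them therefore raises the water mean of such genes by construction and is given as a description. No pair of arrays repeated another, the smallest median absolute difference being 0.0861. Over all 20695 probe sets tested, the median SD was 0.107 in ethanol and 0.157 in water, and the water SD was the larger for 81.3% of them.

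The promoters of the 4 genes that varied together between animals are shown to compare the letters before their starts. They are windows of 250 bases before to 50 after the start of the gene from RefSeq (rat assembly GRCr8), written 5′ to 3′ on the gene's strand. Capitals mark matches, on either strand, to 5 motifs: the cAMP response element TGACGTCA, its shorter form TGACG (contained in it), the AP-1 site TGANTCA, the GC box GGGCGG and the TATA box TATAAA. Windows were at chr17:10546354-10546653 (Drd1, plus strand), chr4:36645333-36645632 (Tac1, plus strand), chr8:58605153-58605452 (Drd2, plus strand) and chr20:46075202-46075501 (Gpr6, minus strand).
Drd1: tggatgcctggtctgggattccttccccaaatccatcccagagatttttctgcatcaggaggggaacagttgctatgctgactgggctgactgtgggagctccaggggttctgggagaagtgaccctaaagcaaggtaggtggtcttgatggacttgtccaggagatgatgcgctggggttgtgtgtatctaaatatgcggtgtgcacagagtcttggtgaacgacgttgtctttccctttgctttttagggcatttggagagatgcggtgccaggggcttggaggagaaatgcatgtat
Tac1: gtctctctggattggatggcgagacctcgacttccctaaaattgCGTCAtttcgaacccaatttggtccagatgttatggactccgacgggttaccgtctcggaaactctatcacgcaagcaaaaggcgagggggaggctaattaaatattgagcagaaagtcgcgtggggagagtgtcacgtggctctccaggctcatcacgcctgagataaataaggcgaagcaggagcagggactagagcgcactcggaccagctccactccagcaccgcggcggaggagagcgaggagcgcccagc
Drd2: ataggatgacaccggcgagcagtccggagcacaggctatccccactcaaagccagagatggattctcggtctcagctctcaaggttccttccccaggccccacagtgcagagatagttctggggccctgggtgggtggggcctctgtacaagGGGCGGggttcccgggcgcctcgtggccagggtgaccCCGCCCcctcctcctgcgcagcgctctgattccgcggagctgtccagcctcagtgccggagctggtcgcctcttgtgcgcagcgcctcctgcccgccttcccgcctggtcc
Gpr6: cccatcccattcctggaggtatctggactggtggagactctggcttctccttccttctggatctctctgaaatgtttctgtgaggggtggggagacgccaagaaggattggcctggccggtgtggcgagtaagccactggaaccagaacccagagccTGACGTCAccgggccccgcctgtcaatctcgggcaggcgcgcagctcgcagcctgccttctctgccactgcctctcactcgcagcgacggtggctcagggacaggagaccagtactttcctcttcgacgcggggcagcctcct
No motif was found in all 4 windows, and the shorter form TGACG was in those of Tac1 and Gpr6. Gpr6 held the full element TGACGTCA 93 bases before its start, which 1.83% of 33469 promoter windows hold. Tac1 held the shorter form on the opposite strand, as CGTCA 206 bases before its start, and 21.2% of windows hold that form. Drd2 held GC boxes 98 and 61 bases before its start (33.1% of windows), as GGGCGG and as its reverse complement CCGCCC. The Drd1 window held none of the 5, nor did those of Isl1 and Drd3, where AP-1 and TATA letters occur in 7.33% and 14.2% of all windows. The G and C content was 51.7% for Drd1, 56.0% for Tac1, 67.3% for Drd2 and 62.0% for Gpr6, against a median of 51.7% over all windows. A match is only these letters, and genes with more than 1 start have other promoters.

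Drd1 encodes the D1 receptor, which couples to stimulatory G proteins. Its probe set 1368478_at ranged from 13.13 over a median of 13.51 to 13.72 in ethanol animals, and from 12.12 over 13.44 to 13.57 in water animals. Water animals 17, 19 and 20, at 12.52, 12.90 and 12.12, lay below every ethanol animal, 4 ethanol animals lay above every water animal, and the others overlapped. The means were 13.49 ± 0.20 (SD, n = 10) and 13.20 ± 0.51 (SD, n = 10), a difference of 0.29 (SE 0.16, 95% interval -0.04 to 0.63) or 1.23-fold, with an adjusted p of 0.46 (limma, Benjamini-Hochberg). Without the 3 animals it was -0.000093, with an interval from -0.15 to 0.15 and an adjusted p of 0.9996 (0.361 to 0.9996 over 32 other settings).

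The other Drd1 probe set, 1368479_at, gave a wider difference. Its ethanol values ran from 11.98 over 12.34 to 12.69, and its water values from 10.56 over 12.14 to 12.35. Again only animals 17, 19 and 20 lay below the lowest ethanol animal, at 10.56, 11.52 and 10.75, while 5 ethanol animals lay above the highest water animal. The difference was 0.47 (SE 0.20, 95% interval 0.05 to 0.89), or 1.39-fold, with an unadjusted p of 0.0311 and an adjusted p of 0.384 by limma with Benjamini-Hochberg. It is the only 1 of the 6 member probe sets above the dim level with an unadjusted p under 0.05, where 12.1% of all tested probe sets had one. Without the 3 animals the difference was 0.09 (95% interval -0.09 to 0.26, adjusted p = 0.723). Both Drd1 probe sets ordered the ethanol animals alike (Pearson's r = 0.886) and the other 7 water animals less so (r = 0.611).

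Tac1 encodes the precursor of the tachykinins substance P and neurokinin A. It varied most: values ran from 13.03 over 13.52 to 13.98 in ethanol and from 11.13 over 13.31 to 13.77 in water. Animal 17 at 11.13 and animal 20 at 11.51 stood well below all others, and animal 19 at 12.76 lay below the lowest ethanol animal. Its water SD of 0.95 was 3.41 times its ethanol SD and larger than that of 99.9% of tested probe sets. The difference of 0.52 (SE 0.29, 95% interval -0.08 to 1.11), or 1.43-fold, had an adjusted p of 0.467 by limma. Without the 3 animals it was 0.0007, with an interval from -0.26 to 0.26.

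Isl1 encodes a LIM-homeodomain transcription factor that D1 neurons need for their development and that cholinergic interneurons also express. Its probe set 1369681_at behaved unlike the others. Values ran from 9.28 over 9.35 to 9.55 in ethanol and from 8.88 over 9.22 to 9.59 in water, so that 6 water animals lay below the lowest ethanol animal and 1, animal 12, lay above the highest. All 10 ethanol animals lay above the water median. Animals 17 and 20 were again lowest, at 8.88 and 8.93, but animal 19, at 9.22, lay among the others. The difference was 0.13 (SE 0.07, 95% interval -0.03 to 0.28, adjusted p = 0.483 by limma), and 0.02 without the 3 animals. The ethanol SD of 0.08 was small, below that of most tested probe sets. The second Isl1 probe set, 1396895_at, was dim, at 4.83 ± 0.17 (SD, n = 10) in ethanol and 4.83 ± 0.15 (SD, n = 10) in water, and tells nothing of the gene's level.

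Drd2 encodes the D2 receptor, which couples to inhibitory G proteins and also serves as an autoreceptor on dopamine neurons. Its values ran from 10.91 over 11.38 to 11.54 in ethanol and from 10.18 over 11.16 to 11.64 in water. Animals 17, 19 and 20, at 10.31, 10.72 and 10.18, lay below every ethanol animal, and water animal 18 lay above every one. The means were 11.31 ± 0.22 (SD, n = 10) and 11.04 ± 0.50 (SD, n = 10), which differ by 0.27 (SE 0.16, 95% interval -0.06 to 0.60) or 1.21-fold, with an adjusted p of 0.487 by limma. Without the 3 animals the difference was -0.0038, with an interval from -0.22 to 0.21.

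Gpr6 encodes an orphan receptor that raises cAMP without a ligand and is enriched in D2 neurons of the striatum. Its values ran from 10.74 over 11.16 to 11.39 in ethanol and from 9.56 over 11.11 to 11.36 in water. The medians lay 0.04 apart, and the low end of the water group was again animals 17, 19 and 20, at 9.92, 10.31 and 9.56. The difference of means was 0.32 (SE 0.20, 95% interval -0.09 to 0.74), or 1.25-fold, with an adjusted p of 0.503 by limma, and it was -0.05 (95% interval -0.25 to 0.14) without the 3 animals.

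Drd3 encodes the D3 receptor, a relative of Drd2 known from the ventral striatum and the islands of Calleja. Its only probe set, 1387733_at, was dim, with a mean higher than that of 11.1% of probe sets. Values ran from 4.96 to 5.44 in ethanol and from 5.05 to 5.30 in water. Animals 17, 19 and 20, at 5.05, 5.10 and 5.14, lay within the ethanol range, with animals 17 and 19 the lowest of the water group. The difference was 0.03 (95% interval -0.10 to 0.17, adjusted p = 0.868 by limma without the filter). A probe set at this level says little about the gene, since values of dim probe sets are compressed.

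Counted together, 0 of the 6 member probe sets above the dim level passed the threshold in limma, and 1 had an unadjusted p under 0.05. The 20 probe sets that passed were 11 higher in ethanol (0.0532%) and 9 lower (0.0435%). Of the members, 0 had groups without overlap, against 0.0483% of all tested. All 6 member differences were positive, where 50.0% of tested probe sets had a positive difference, but the genes vary together across animals and are not 6 separate observations. Without animals 17, 19 and 20, 50 probe sets passed (0.242%) and again 0 of the members. In none of the 32 other settings did a member pass. Weighting arrays by their quality in limma lowered the differences to 0.138 and 0.242 for Drd1, 0.184 for Tac1, 0.103 for Isl1, 0.106 for Drd2 and 0.108 for Gpr6.

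**Figure D1:**
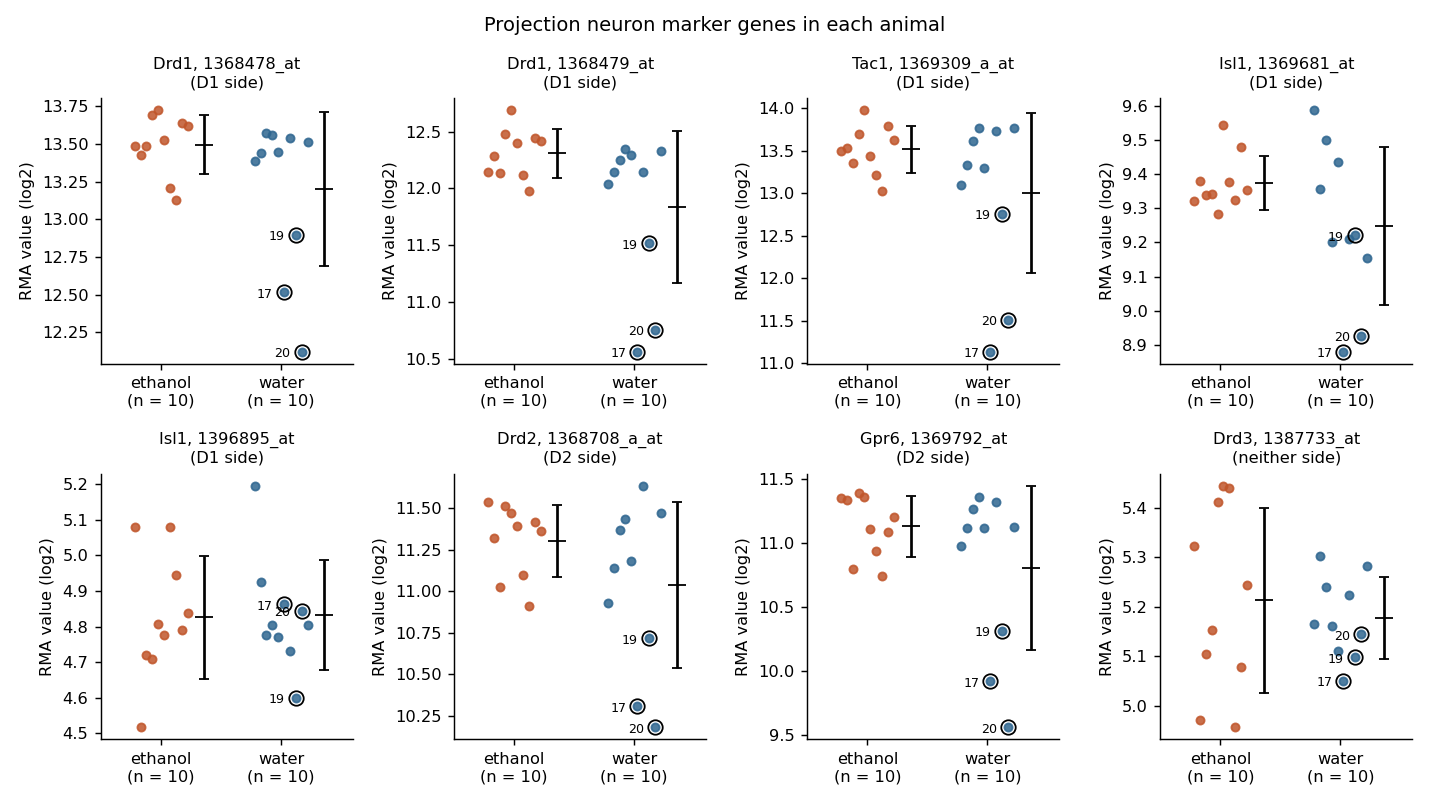
Values of each probe set of the 6 genes in each animal (log2, vertical axis, a scale of its own in each panel), with ethanol animals in orange and water animals in blue, in order of animal number. The horizontal mark and bar at the right of each group give the mean and SD (n = 10). Water animals 17, 19 and 20 are ringed: they lie below every ethanol animal for Drd1, Tac1, Drd2 and Gpr6. For Isl1 1369681_at they are among 6 water animals that do so, with animals 17 and 20 lowest and animal 19 among the other water animals. The dim probe sets of Isl1 and Drd3 show no such pattern.

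**Figure D2:**
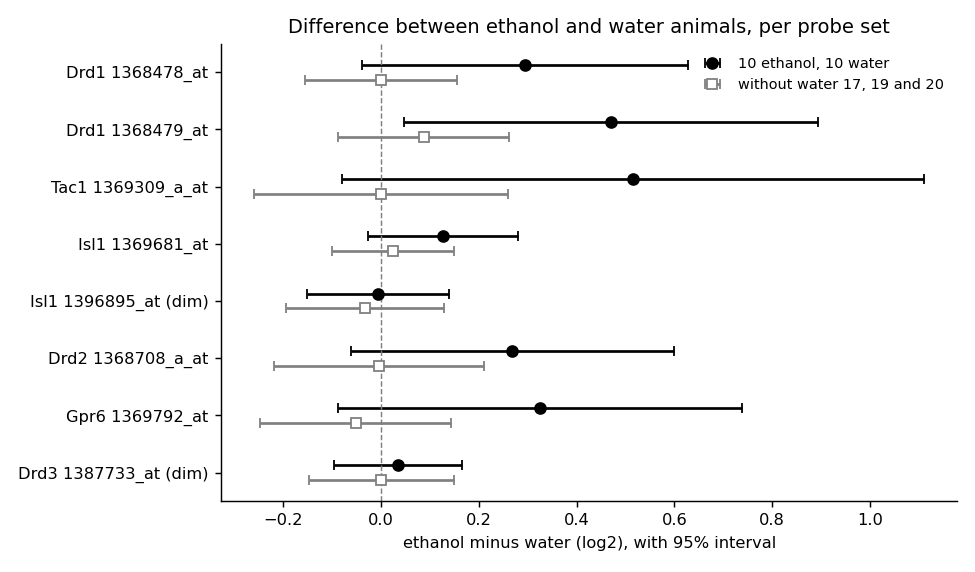
Difference between the group means, ethanol minus water (log2, horizontal axis), for each probe set, with the 95% interval from limma. Black points hold all 20 animals and grey squares leave out water animals 17, 19 and 20. Only the black interval of Drd1 1368479_at (0.05 to 0.89) lies above 0, and every grey interval includes 0.

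To set the sides against each other, each gene was expressed in every animal as its deviation from its mean over the 20 animals. These deviations were averaged over Drd1, Tac1 and Isl1 for the D1 side and over Drd2 and Gpr6 for the D2 side. The D1 side was at 0.156 ± 0.158 (SD, n = 10) in ethanol and -0.156 ± 0.537 (SD, n = 10) in water. The D2 side was at 0.148 ± 0.223 (SD, n = 10) and -0.148 ± 0.564 (SD, n = 10). Both sides were thus apart by nearly the same amount, 0.312 and 0.297.

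Within an animal the sides followed each other. Animal 17 had -1.13 on the D1 side and -0.96 on the D2 side, animal 19 had -0.35 and -0.56, and animal 20 had -1.12 and -1.20. The other 17 animals lay between -0.24 and 0.41 on either side. The lowest of the ethanol group on both sides was animal 8, at -0.14 and -0.24.

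The D1 side minus the D2 side ran from -0.244 over a median of 0.014 to 0.245 in ethanol animals, and from -0.222 over 0.011 to 0.208 in water animals. The groups covered nearly the same range. Animals 17, 19 and 20, at -0.17, 0.21 and 0.08, lay inside that of the ethanol animals, and animal 19 was the highest of the water group. The group means were 0.008 ± 0.140 (SD, n = 10) and -0.008 ± 0.139 (SD, n = 10), a difference of 0.015. No p is given, since the members were chosen with results known. The difference was 0.036 without animals 17, 19 and 20 and 0.026 for Drd1 against Drd2 alone. It was 0.108 when Isl1 was left out of the D1 side, with a wider water SD of 0.198. Animals 17 and 20, the lowest in Tac1, were then at -0.52 and -0.29, below every ethanol animal (lowest -0.18), and animal 19 was at 0.08. With 10 D1 and 5 D2 genes of wider marker lists, which include the members, it was -0.039. Each of these differences was smaller than the SD between the animals of either group on the same measure.

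**Figure D3:**
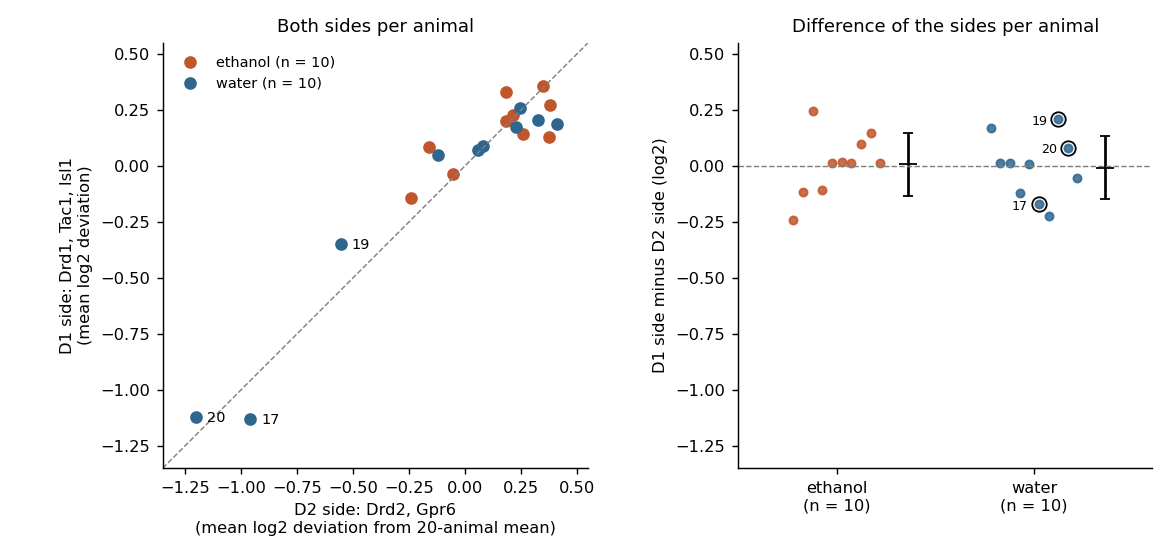
Left, the mean deviation of the D1 genes (vertical axis) against that of the D2 genes (horizontal axis) in each animal, both in log2 units from the 20-animal mean, with the dashed line where they are equal. Right, the difference of the sides per animal with the mean and SD of each group (n = 10). Animals 17, 19 and 20 lie low on both axes and near the line, and in the right panel both groups spread around 0, from -0.244 to 0.245.

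How the genes vary together was measured over pairs of genes, 15 in all. It was measured separately in the 10 ethanol animals and in the 7 water animals other than 17, 19 and 20, which stand apart. Animals 17, 19 and 20 were left out for low values of projection neuron genes, Drd1, Tac1, Drd2 and Gpr6 among them. Leaving them out narrows the range of these genes, which can itself change r. The members were also chosen with results known. The p values of these correlations, above all in the 7 water animals, are therefore only a description. In ethanol animals Drd1 and Tac1, both D1 genes, had a Pearson's r of 0.929 (permutation p = 7e-05, adjusted p = 0.00105) and a Spearman's rho of 0.903 (permutation p = 0.00067, adjusted p = 0.01). Drd2 and Gpr6, both D2 genes, had r = 0.915 (permutation p = 0.0005, adjusted p = 0.00375) and rho = 0.842 (permutation p = 0.00388, adjusted p = 0.0291). Without the 2 animals farthest from the median these were 0.847 and 0.759. In the other 7 water animals Drd1 and Tac1 had r = 0.911 (exact permutation p = 0.0091, adjusted p = 0.0456) and rho = 0.643 (adjusted exact permutation p = 0.26). Drd2 and Gpr6 had r = 0.825 (exact permutation p = 0.0244, adjusted p = 0.0732) and rho = 0.786 (adjusted exact permutation p = 0.144) there. Both pairs within a side thus passed in ethanol animals by r and rho, and in the 7 water animals Drd1 with Tac1 passed by r alone.

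Pairs across the sides were also correlated in ethanol animals, with less certainty. Drd1 and Drd2 had r = 0.804 (permutation p = 0.00688, adjusted p = 0.0258) and rho = 0.758 (permutation p = 0.0151, adjusted p = 0.0755), and r = 0.476 without the 2 animals farthest from the median. Tac1 and Drd2 had r = 0.811 (permutation p = 0.00367, adjusted p = 0.0183), Tac1 and Gpr6 had r = 0.751 (permutation p = 0.0127, adjusted p = 0.0382) and Drd1 and Gpr6 had r = 0.685 (permutation p = 0.0293, adjusted p = 0.0733). Their rho values were 0.709, 0.733 and 0.697 (permutation p = 0.0271, 0.0207 and 0.0309, adjusted p = 0.0772 for each), and r without the 2 farthest animals was 0.716, 0.563 and 0.306. The 2 animals left out were those farthest from the median of the first-named gene of each pair. Leaving them out narrows the range of that gene, which can itself lower r, so these lower values are only a description. In the other 7 water animals the same 4 pairs had r of 0.863, 0.946, 0.816 and 0.912 (adjusted exact permutation p = 0.0484, 0.0417, 0.0761 and 0.0456). Their rho values there were 0.679 to 0.857, with adjusted exact permutation p from 0.119 to 0.235. Whether pairs within a side are closer than pairs across the sides was not tested.

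In the ethanol animals and in the 7 water animals, Isl1 stood apart from the other genes. In ethanol animals its r was 0.066 with Drd1, -0.015 with Tac1, 0.137 with Drd2 and -0.110 with Gpr6 (adjusted permutation p from 0.893 to 0.968). In the 7 water animals the same values were -0.543, -0.817, -0.796 and -0.569. The strongest, with Tac1, had an exact permutation p of 0.0429 (adjusted p = 0.0804 over the 15 pairs), with rho = -0.893 (exact permutation p = 0.0123, adjusted p = 0.119). No pair with Isl1 thus passed in the ethanol animals or in the 7 water animals. For the 7 water animals, which remain after a choice by values of these genes, that is only a description. Water animal 12, with the highest Isl1 (9.59), had the lowest Tac1 of the 7 (13.09), and animal 21, with the lowest Isl1 of them (9.15), had the Tac1 of 13.77. Over all 20 animals, as deviations from the group means, Drd1 and Isl1 did pass by r (0.654, adjusted permutation p = 0.0359). Their rho was 0.320 (adjusted permutation p = 0.294), and r without water animals 17 and 20 was 0.096. In all 10 water animals their r was 0.732 (adjusted permutation p = 0.0369) and their rho 0.358 (adjusted permutation p = 0.427). Drd3, measured near the floor of the array, had r between 0.139 and 0.365 with the other genes in ethanol animals.

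**Figure D4:**
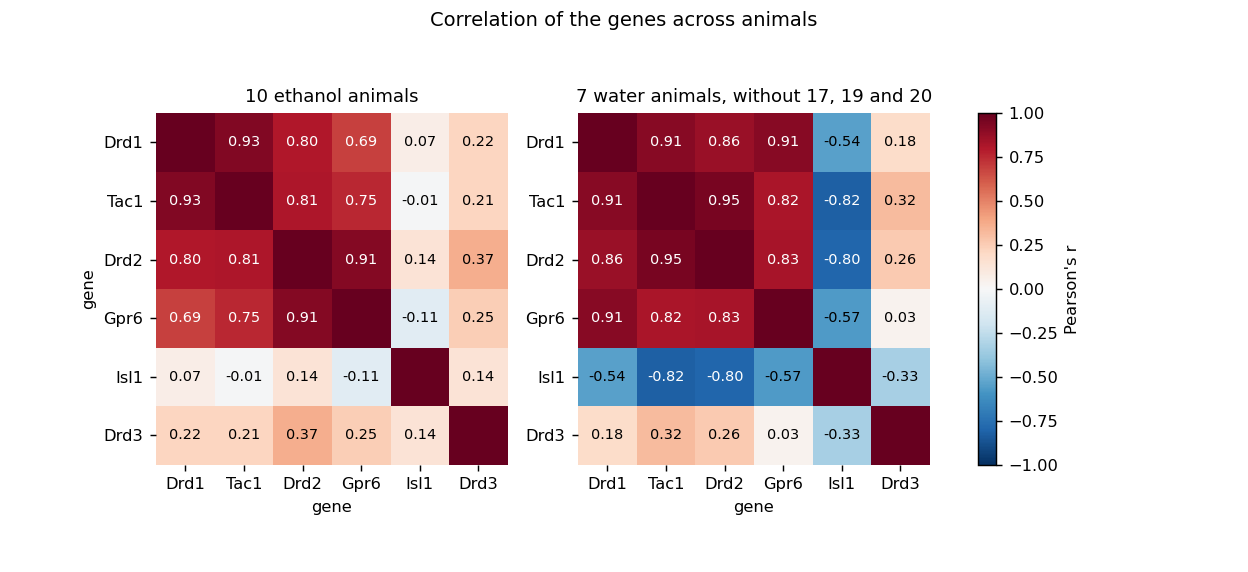
Pearson's r between the genes across animals, for the 10 ethanol animals (left) and the 7 water animals other than 17, 19 and 20 (right), with 1 probe set per gene, that of highest mean; rows and columns are genes and the colour scale runs from -1 to 1. Drd1, Tac1, Drd2 and Gpr6 form a block of r from 0.685 to 0.946, while Isl1 lies near 0 in ethanol animals and between -0.331 and -0.817 in the 7 water animals. No pair with Isl1 passed the adjusted threshold in either panel. The right panel leaves out animals known to be low in projection neuron genes and is only a description.

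Against all 10653 other genes above the dim level, the members ranked high in each other's lists, though not first. Ranks are by Pearson's r over the 20 animals of deviations from the group means, which animals 17, 19 and 20 largely set, followed by the rank in ethanol animals alone. For Drd1, Gpr6 was the 35th gene (712th in ethanol), Tac1 the 73rd (30th), Drd2 the 117th (304th) and Isl1 the 1048th (4112th). For Drd2, Gpr6 was the 26th (23rd in ethanol). For Gpr6, Drd1 was the 36th (546th) and Drd2 the 41st (14th). The closest member of Drd1, Tac1, Drd2 and Gpr6 was of the same side in ethanol animals. In the other 7 water animals it was of the opposite side for all 4, Drd1 with Gpr6 (r = 0.912) and Tac1 with Drd2 (r = 0.946), and Drd1 was about as near to Tac1 (r = 0.911).

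The genes most like Drd1 over the 20 animals were Slc35d3 (r = 0.985), a nucleotide sugar transporter known from D1 neurons, Tbc1d10c (0.984) and Plk2 (0.981), a kinase induced by synaptic activity. In the ethanol animals alone these r were 0.979, 0.952 and 0.947. For Drd2 they were Adora2a (0.970), an adenosine receptor of D2 neurons, Patj (0.968) and Cbr3 (0.968), with 0.933, 0.951 and 0.948 in ethanol animals. Tac1 was most like Arl15 (0.969), Plk2 (0.968) and Phactr1 (0.966). Gpr6 was most like Kctd1 (0.980), the opioid precursor Pdyn (0.975), which is counted as a D1 gene, and Kcnq5 (0.973). Isl1 had weaker neighbours, Sub1 (0.868), Hic2 (0.865) and Ankrd63 (0.855), and Drd3 had Igflr1 (0.735), Pold1 (0.705) and Scrn3 (0.699). As the highest of 10653 values, these r are selected, and they carry no test.

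Wider lists hold further markers of D1 and D2 neurons together with the members of each side, so their counts and medians partly repeat the members. Of 10 D1 genes all were above the dim level, 0 passed, 8 differences were positive and the median was 0.157, against a median near 0 over all tested probe sets. Pdyn, the precursor of dynorphin, was 0.24 higher in ethanol (adjusted p = 0.524 by limma), Slc35d3 0.48 (adjusted p = 0.527), the muscarinic receptor Chrm4 0.13 and the transcriptional coactivator Eya1 0.18. The transcription factors Ebf1 and Zfp521 differed by -0.05 and -0.02, and Sfxn1, a mitochondrial carrier, by 0.017. Slc35d3 was at 9.06, 9.75 and 8.53 in animals 17, 19 and 20, against 10.58 to 11.31 in the other water animals. Zfp521, at 9.67, 9.79 and 9.73 against 9.36 to 9.83, did not share the low values. Ebf1, at 9.03, 8.77 and 8.30 against 8.42 to 8.88, was above the other water animals in animal 17, within them in animal 19 and below them in animal 20.

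Of 9 D2 genes, 7 had a probe set and 5 lay above the dim level, while Upb1 and Grik3 were dim. Of these 5, which include Drd2 and Gpr6, 0 passed and 5 differences were positive. The median was 0.269, which is the difference of Drd2 itself. Adora2a was 0.37 higher in ethanol (adjusted p = 0.428 by limma), Penk, the enkephalin precursor, 0.17 (adjusted p = 0.538) and Plxdc1 0.018. In animals 17, 19 and 20 Adora2a was at 11.34, 11.60 and 10.99 against 12.23 to 12.73 in the other water animals, and Penk at 14.11, 13.95 and 13.59 against 14.45 to 14.81. Plxdc1, at 8.16, 8.32 and 8.38 against 7.89 to 8.51, was again not low. Without the 3 animals the median differences of the D1 and D2 lists were 0.000 and -0.004.

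Genes that D1 and D2 neurons share gave the same picture. Of the 16 measured, 0 passed and 16 differences were positive, with a median of 0.19, or -0.04 without animals 17, 19 and 20. Rgs9, which ends signalling by G proteins, had the smallest p and was 0.35 higher in ethanol (adjusted p = 0.394 by limma), followed by Rasgrp2, 0.38 higher (adjusted p = 0.409). When the mean of this list was added to the model as a covariate, the member differences were 0.036 and 0.162 for the 2 Drd1 probe sets, 0.074 for Tac1, 0.063 for Isl1, 0.012 for Drd2 and 0.004 for Gpr6. Each was smaller than without the covariate, and Drd1 1368479_at and Isl1 kept the largest shares.

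Among relatives of the members, the dopamine receptors Drd4 and Drd5 were dim, as Drd3 was. Tac3 and the substance P receptor Tacr1 differed by -0.31 (adjusted p = 0.485 by limma) and -0.07, unlike Tac1. Gpr12, a relative of Gpr6, was 0.27 higher in ethanol (adjusted p = 0.346). None passed.

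Of the lists of other cells, those of septum and pallidum and of microglia also set animals 17, 19 and 20 apart from all other animals. The oligodendrocyte list set them apart from the other water animals only. The oligodendrocyte list (9 of 10 genes measured) had 0 genes past the threshold, 9 negative differences and a median of -0.155; its smallest p were those of the transcription factors Sox10 (-0.25, adjusted p = 0.365 by limma) and Myrf (-0.24, adjusted p = 0.45). Its mean was at 12.70, 12.55 and 12.58 in animals 17, 19 and 20, above the 11.82 to 12.45 of the other water animals, and at 11.79 to 12.65 in ethanol. The septum and pallidum list, which has 2 of 3 genes above the dim level, Nkx2-1 and Trpc4, was at 7.98, 7.52 and 8.27 in the 3 animals, above all other animals (6.71 to 7.25 in ethanol and 6.79 to 7.32 in the other water animals). The remaining gene of that list, Zic1, was dim. The interneuron list without cholinergic genes (5 of 7 genes) was at 10.43, 10.83 and 10.88, against 9.71 to 10.45 in the other water animals and 9.91 to 10.77 in ethanol. Its genes of smallest p were the neuropeptide Npy (0.14, adjusted p = 0.375 by limma) and Calb2 (-0.25, adjusted p = 0.606).

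The cholinergic list (Chat, Slc18a3 and Slc5a7; 3 of 6 genes measured), of interest because these cells also express Isl1, had a median difference of 0.028 and did not separate the 3 animals. Microglial genes had 1 positive and 7 negative differences with a median of -0.117, led by Tmem119 (-0.15, adjusted p = 0.327 by limma) and Aif1 (-0.14, adjusted p = 0.394). Their list mean, at 9.57, 9.62 and 9.74 in animals 17, 19 and 20, lay above all ethanol animals (9.33 to 9.55) and the other water animals (9.32 to 9.52). Astrocyte and endothelial lists had median differences of -0.026 and 0.078, and of the choroid plexus genes Ttr, Kl and Folr1 were dim and Kcnj13 differed by -0.00049. Of 5 measured markers of midbrain dopamine neurons, the defining Th and Pitx3 were dim, while Slc6a3, Slc18a2 and Nr4a2 were above the dim level, with differences of 0.07, 0.07 and 0.01. Of 5 measured markers of cortical neurons, Slc17a7, Neurod6 and Tbr1 were dim, and Neurod2 and Fezf2 were above that level, with differences of 0.09 and 0.07. Adding the oligodendrocyte list as a covariate left member differences of 0.112 and 0.252 for Drd1, 0.203 for Tac1, 0.076 for Isl1, 0.091 for Drd2 and 0.103 for Gpr6. The part of these other cells in the result was not tested.

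**Figure D5:**
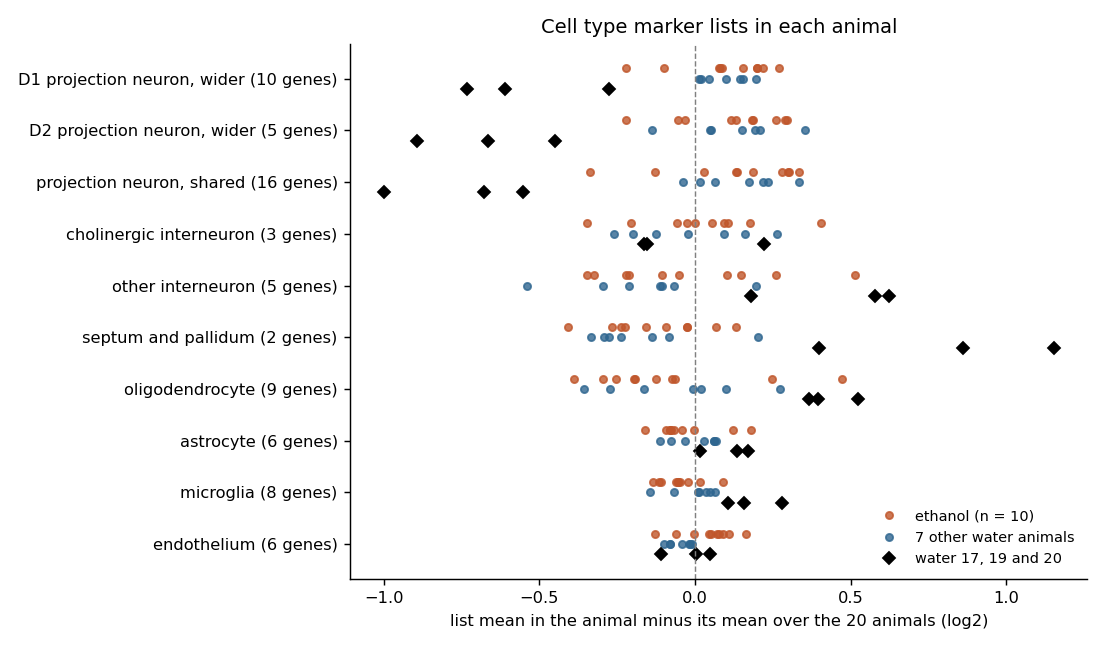
Mean of each marker list in each animal as a deviation from its mean over the 20 animals (log2, horizontal axis), for ethanol animals (orange, n = 10), water animals 17, 19 and 20 (black diamonds) and the other 7 water animals (blue). The diamonds lie to the left of all other animals for the projection neuron lists and to the right of all others for the septum and pallidum and the microglia lists, while on the cholinergic list they lie among the others.

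RNA quality was read from control probe sets at the 3′ and 5′ ends of housekeeping transcripts, whose difference grows as RNA degrades. It was 1.21 ± 0.12 (SD, n = 10) in ethanol and 1.40 ± 0.22 (SD, n = 10) in water, and 1.63, 1.25 and 1.25 in animals 17, 19 and 20, of which only the first lies outside the ethanol range of 1.06 to 1.43. Water animals 12, 13, 14 and 18, at 1.64, 1.47, 1.54 and 1.70, also lay above that range. With the 3′ minus 5′ difference as a covariate the member differences were 0.332 and 0.385 for Drd1, 0.436 for Tac1, 0.147 for Isl1, 0.285 for Drd2 and 0.348 for Gpr6.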

How the data were processed

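Total RNA from the nucleus accumbens shell of 20 rats was measured on 1-colour Affymetrix arrays. Per the labels' protocols, Trizol and a Qiagen column served for extraction, and 50 ng of RNA was turned into biotin-labelled cRNA with a kit that primes at the 3′ end. The authors' values are log2 values and, per the submitters' processing notes, come from RMA. Its software and chip definition were not given in the sources used here. RMA gives arrays one distribution, compresses dim probe sets and hides a shift shared by most genes. Animal 11 was not analysed here.

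The 57 controls and the 33.3% of probe sets with the lowest mean (below 6.65) were left out, and 20695 were tested by lmFit and eBayes of limma 3.58.1 (R 4.3.3) in a model of treatment alone, two-sided, with Benjamini-Hochberg adjustment over all of them and a threshold of 0.05. Dim members come from the fit without that filter. A gene is its probe set of highest mean. Correlations have 100000 resamples, or exact enumeration for 7 animals. The fit was checked on simulated data. The members and lists were chosen with earlier results of these data known. Named are all members, all measured genes of the wider D1 and D2 lists, of other lists those past the threshold or else the 2 of smallest p, and the 3 genes most like each member, leaving out members and predicted loci; the other genes named were chosen after their values were seen. Alternatives varied the covariates, the animals included, the normalization, the filter and the weighting of arrays.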

Additional observations from a re-analysis of the deposited data

How the results depend on the processing

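No member probe set passed the threshold under any alternative. Leaving out 1 animal at a time gave differences of 0.17 to 0.34 and 0.33 to 0.53 for the Drd1 probe sets, 0.31 to 0.60 for Tac1, 0.086 to 0.165 for Isl1 1369681_at, 0.17 to 0.34 for Drd2, 0.19 to 0.39 for Gpr6, 0.0093 to 0.063 for Drd3 and -0.033 to 0.035 for the dim Isl1 1396895_at. With array weights the differences were 0.138 and 0.242 for Drd1, 0.184 for Tac1, 0.103 for Isl1 1369681_at, 0.106 for Drd2 and 0.108 for Gpr6. Without 1 animal, the D1 side minus the D2 side differed by -0.011 to 0.043. An alternative that was not planned in advance left out water animals 12, 17 and 20, the arrays of lowest median correlation with the others. In it every member difference above the dim level stayed positive. These were 0.070 and 0.162 for Drd1, 0.048 for Tac1, 0.077 for Isl1 1369681_at, 0.027 for Drd2 and 0.043 for Gpr6. Without water animals 17, 19 and 20, an alternative chosen after results were known, the sign turned for Drd1 1368478_at (-0.000093), Drd2 (-0.0038) and Gpr6 (-0.051). Dim probe sets also turned: Isl1 1396895_at was at 0.0075 with array weights, 0.039 with the 3′ minus 5′ value in the model, 0.0019 with the shared projection neuron list, 0.0032 with the oligodendrocyte list and 0.053 without animals 12, 17 and 20, and Drd3 was at -0.0065 with the oligodendrocyte list. The cause was not tested. The count of all probe sets past the threshold, 20, was 38 with array weights, 7 with the 3′ minus 5′ value, 44 with the shared list, 50 without animals 17, 19 and 20, 10 with a filter at the median, and 14 to 24 without 1 animal. No paired analysis was possible because the groups share no animal numbers. The number of arrays limits the precision, and the dim probe sets of Drd3 and Isl1 show differences less well, since values of dim probe sets are compressed.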
